A study of Homo sapiens with 18 samples.

Results

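The genes described here are 10 amino acid synthesis and transport genes that are targets of the transcription factor ATF4, out of 57500 genes counted. They were chosen by their known function and matched from the gene identifiers by symbol. Asparagine synthesis is represented by *ASNS*, serine synthesis by *PHGDH*, *PSAT1* and *PSPH*, mitochondrial one-carbon metabolism by *SHMT2* and *MTHFD2*, and proline synthesis by *ALDH18A1*. Amino acid transport is represented by *SLC7A11*, *SLC7A5* and *SLC3A2*. All 10 passed the filter on low counts in every comparison.

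RNA-seq was performed in ES8 cells, an Ewing sarcoma line, and Rh30 cells, a rhabdomyosarcoma line. Both carried dCas9-KRAB, a catalytically dead Cas9 fused to a repressor domain, so that an sgRNA lowers transcription of its target (CRISPRi). Each line was sampled in 3 groups of 3 libraries. Parental cells received a control guide (sgCTL) or a guide against the J-domain co-chaperone gene *DNAJC17* (sgDNAJC17), and cells with the genotype 3xFLAG-DNAJC17-dRRM, called ΔRRM here, received sgDNAJC17. All 18 cultures were selected in puromycin for 72 hours after transduction. The ΔRRM cells are a separately transduced and hygromycin-selected population in which the EF1 promoter drives a tagged DNAJC17 without its RNA recognition motif. No ΔRRM library with sgCTL was analysed here, so the effects of the allele and of the separate population cannot be told apart.

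ATF4 is the central effector of the integrated stress response. Kinases that sense amino acid shortage, unfolded protein, haem deficit or double-stranded RNA phosphorylate the initiation factor eIF2α, which lowers general translation while favouring translation of *ATF4* mRNA. ATF4, in pairs with C/EBP proteins, then activates genes that make non-essential amino acids, load tRNAs and import amino acids. The synthesis enzymes feed protein and nucleotide production in proliferating tumour cells, and *SLC7A11*, which imports cystine, supplies glutathione synthesis.

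ATF4 binds with C/EBP partners at composite elements that contain the letters TGATGNAA. RefSeq promoter windows on GRCh38 (250 bases before to 50 bases after a start site) were searched on both strands to show which members carry these letters. *ALDH18A1*, *ASNS*, *MTHFD2*, *PHGDH*, *PSAT1*, *SLC3A2* and *SLC7A5* had 10 windows between them. *PSPH*, *SHMT2* and *SLC7A11* were not searched. The letters were found in 2 of these 10 windows, and in 3.62% of 35116 windows over all genes. The 2 sites are printed below on the strand of the gene with the match in capitals, which in *SLC3A2* reads on the opposite strand.
*ASNS* (chr7:97872459-97872486, minus strand): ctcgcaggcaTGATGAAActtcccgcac
*SLC3A2* (chr11:62881726-62881748, plus strand): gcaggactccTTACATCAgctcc
The *ASNS* match began 68 bases before the start site of its window. The *SLC3A2* match began 37 bases after the start site of 1 of its 3 windows. A match describes the letters in the window and was not tested for binding.

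The libraries held 35342393 to 48245989 counts. *DNAJC17* fell in both lines, from 11.2, 12.4 and 12.3 CPM (counts relative to library size, scaled by TMM) in ES8 sgCTL replicates A, B and C to 1.56, 1.96 and 1.56 with sgDNAJC17, and from 11.7, 11.9 and 10.8 to 2.52, 2.20 and 2.72 in Rh30. It stood at 283 to 312 CPM in ES8 ΔRRM and at 336 to 368 CPM in Rh30 ΔRRM, where reads from the transgene and the endogenous gene were not separated. Summed Ewing sarcoma markers reached 1344 to 1549 CPM in ES8 and 201 to 412 CPM in Rh30. Summed rhabdomyosarcoma markers reached 1959 to 3060 CPM in Rh30 and 63.1 to 94.7 CPM in ES8. In Rh30 sgCTL 2 of the 6 Ewing sarcoma markers had means above 1 CPM, *CCND1* (267 CPM) and *FCGRT* (40.4 CPM). In ES8 sgCTL 1 of the 6 rhabdomyosarcoma markers did, *FGFR4* (92.4 CPM). In Rh30 sgCTL 5 of these 6 did, and *MYH3* was at 0.77 CPM. ES8 sgDNAJC17 replicate A stood apart. A chi-square of its counts against replicates B and C was 27.5 and 31.5 per degree of freedom, beside 2.62 between B and C. ES8 ΔRRM replicate B (31.8 and 20.5 against A and C, beside 9.08) and Rh30 sgDNAJC17 replicate A (28.8 against C, beside 7.16 between B and C) stood apart less clearly, and no pair agreed within sampling noise. Results that rest on such libraries are given with and without them. The labels give no batch, and the triplicate cultures may differ only technically, so p-values measure the spread between these libraries.

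**Figure D1:**
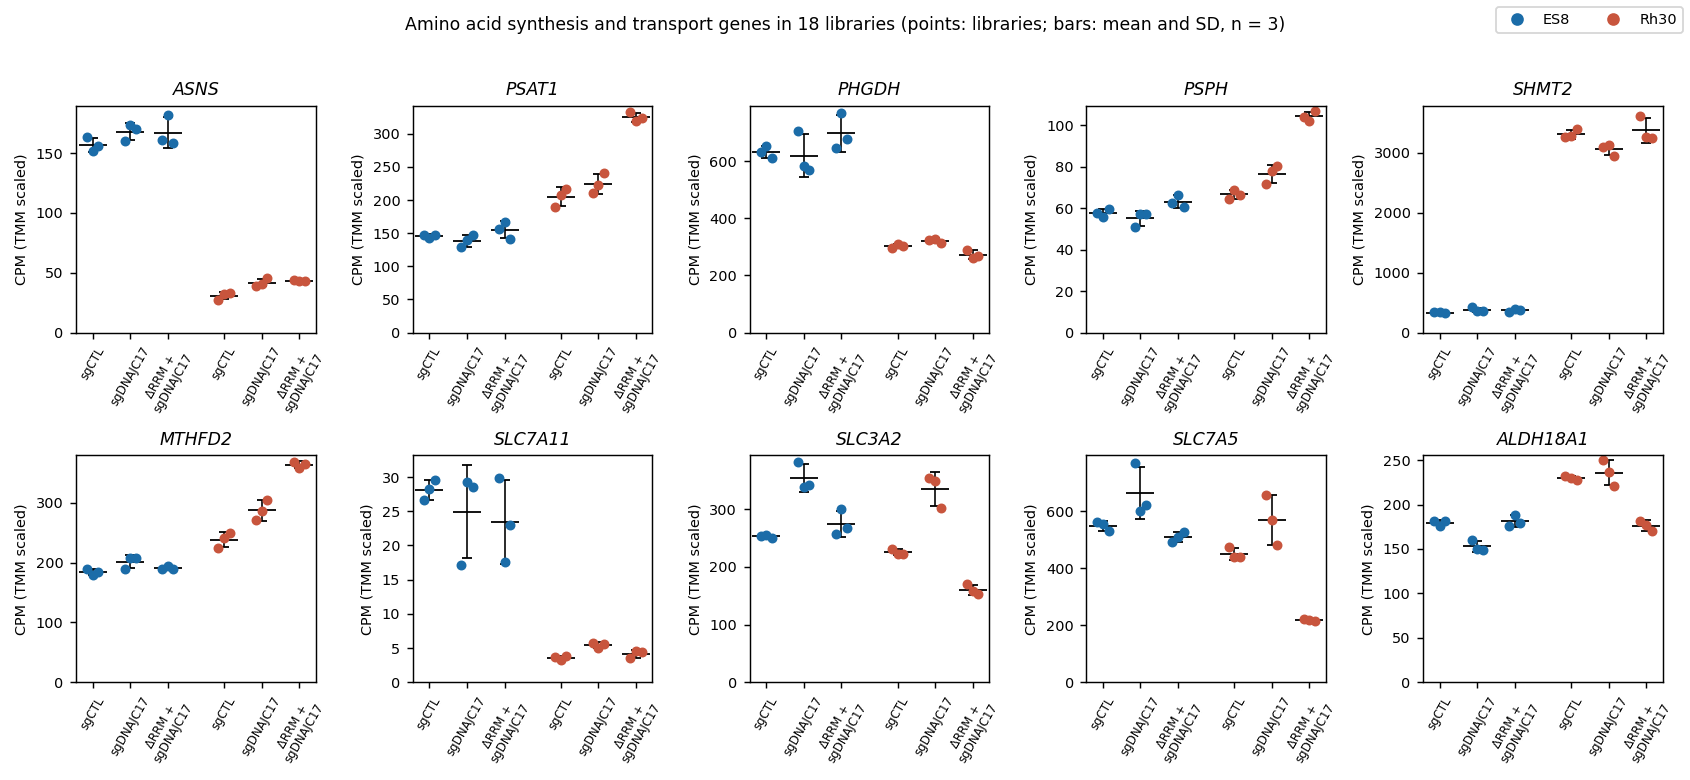
CPM (TMM scaled, linear axes from 0) of the 10 genes in the 18 libraries, with ES8 in blue and Rh30 in red; points are libraries, horizontal lines are means and bars are SDs (n = 3). *SLC3A2* and *SLC7A5* have their highest means with sgDNAJC17 and, in Rh30, their lowest with ΔRRM, while *PSAT1*, *PSPH* and *MTHFD2* have their highest means in Rh30 ΔRRM.

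Levels were first compared between genes in sgCTL cells, as CPM per kb of exon. In ES8 the highest were *SLC7A5*, the light subunit of the large neutral amino acid transporter, at 116 ± 3.72 (SD, n = 3) and *PHGDH*, the first enzyme of serine synthesis, at 112 ± 3.49. The replicates of these 2 genes overlapped. All other neighbours in the ES8 order were separate, from *SHMT2* at 69.2 ± 1.23 through *PSAT1*, *SLC3A2*, *ALDH18A1*, *MTHFD2*, *ASNS* and *PSPH* down to *SLC7A11* at 2.92 ± 0.15. In Rh30 *SHMT2* led at 683 ± 15.1 CPM per kb. *SLC7A5* at 95 ± 4.5 and *PSAT1* at 93.6 ± 6.61 followed and overlapped. *ALDH18A1*, *PHGDH*, *MTHFD2*, *SLC3A2* and *PSPH* came next, each separate from its neighbour. *ASNS* at 6.92 ± 0.689 and *SLC7A11* at 0.375 ± 0.0271 were the lowest 2 in Rh30.

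**Figure D2:**
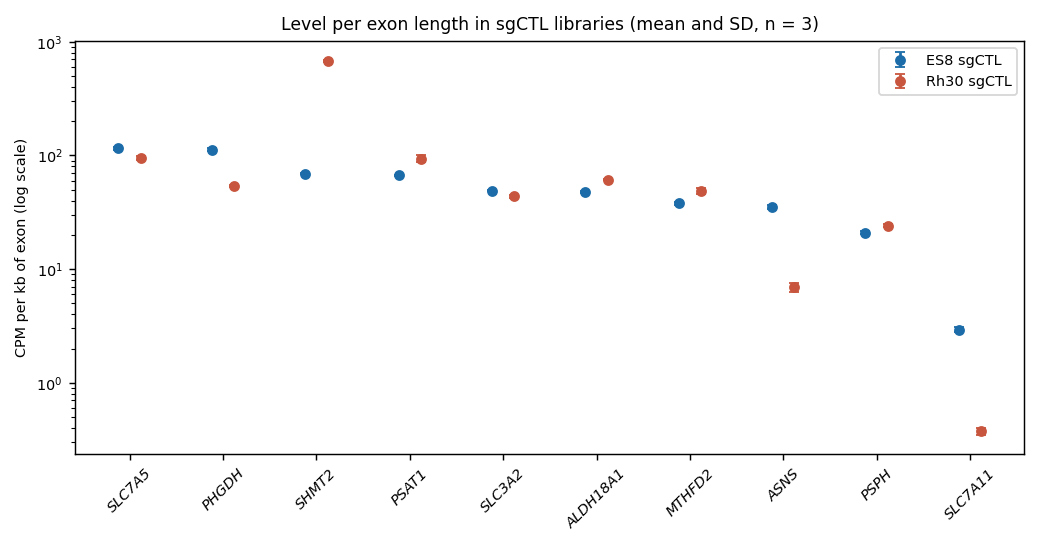
Mean CPM per kb of exon (log axis) of the 10 genes in ES8 sgCTL (blue) and Rh30 sgCTL (red) libraries, in the order of the ES8 level; bars are SDs (n = 3). *SHMT2* at 683 in Rh30 lies far above its ES8 level of 69.2, and *ASNS* and *SLC7A11* lie below theirs.

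With sgDNAJC17, *SLC7A5* was again first in ES8, at 140 ± 19.0 CPM per kb, and *SHMT2* first in Rh30, at 632 ± 19.8. In Rh30 ΔRRM cells *SHMT2* was followed by *PSAT1* at 149 ± 3.00 and *MTHFD2* at 74.7 ± 1.18. *SLC7A5* stood sixth there at 45.9 ± 0.80, where its replicates overlapped those of *ALDH18A1*.

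The parental lines were then compared before any knockdown. All 10 genes differed between Rh30 and ES8 sgCTL cells by edgeR's quasi-likelihood test at a Benjamini-Hochberg adjusted p under 0.05, with 5 higher and 5 lower in Rh30. Over all 17925 genes tested 87.5% passed, so a difference between the lines was common. By at least 2-fold, *SHMT2* was higher (background 22.2% of genes) and *ASNS*, *PHGDH* and *SLC7A11* were lower (background 28.7%). *SHMT2*, the mitochondrial serine hydroxymethyltransferase, was at 336, 340 and 328 CPM in the ES8 replicates and at 3254, 3274 and 3389 CPM in Rh30, a log2 fold change of 3.28 ± 0.048 (SE, adjusted p = 1.15e-41). *ASNS*, which makes asparagine from aspartate and glutamine, was at 163, 151 and 156 CPM in ES8 and 27.3, 32.1 and 33.0 CPM in Rh30 (log2 fold change −2.37 ± 0.058, adjusted p = 1.56e-33). *SLC7A11* was at 26.7, 28.3 and 29.6 CPM in ES8 and 3.72, 3.32 and 3.81 CPM in Rh30 (−2.99 ± 0.086, adjusted p = 9.29e-31). *PHGDH* was at 632, 652 and 612 CPM in ES8 and 296, 309 and 302 CPM in Rh30 (−1.09 ± 0.046). The other 6 differed by log2 fold changes between −0.31 (*SLC7A5*) and 0.46 (*PSAT1*). The *PSPH* value of 0.18 became −0.03 (adjusted p = 0.557) when libraries were scaled by size alone, which moved the median of all genes from −0.07 to −0.28. It was 0.09 (adjusted p = 0.0882) when only genes with at least 10 counts in every library were tested.

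*SHMT2* lies on chromosome 12 (57229327 to 57234935, plus strand, GRCh38), on the arm that holds *CDK4*. Of 72 tested genes that start within 1 Mb of it, 38 were higher in Rh30, with a median log2 fold change of 0.80 beside −0.07 over all genes. At the same adjusted p under 0.05 by edgeR, 87.5% of all 17925 genes passed in either direction. The share of all genes that was higher is not given here, so these counts have no such background. The difference between the lines was uneven along the interval. Among 42 genes that start at or above the start of *SHMT2*, itself included, 31 were higher and the median was 2.54. Among 30 genes that start below it, 7 were higher and the median was −0.43. *CDK4*, the cell-cycle kinase gene, had a log2 fold change of 4.47 and *DDIT3*, the stress-response factor CHOP, one of 1.06. DNA copy number was not analysed here.

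**Figure D3:**
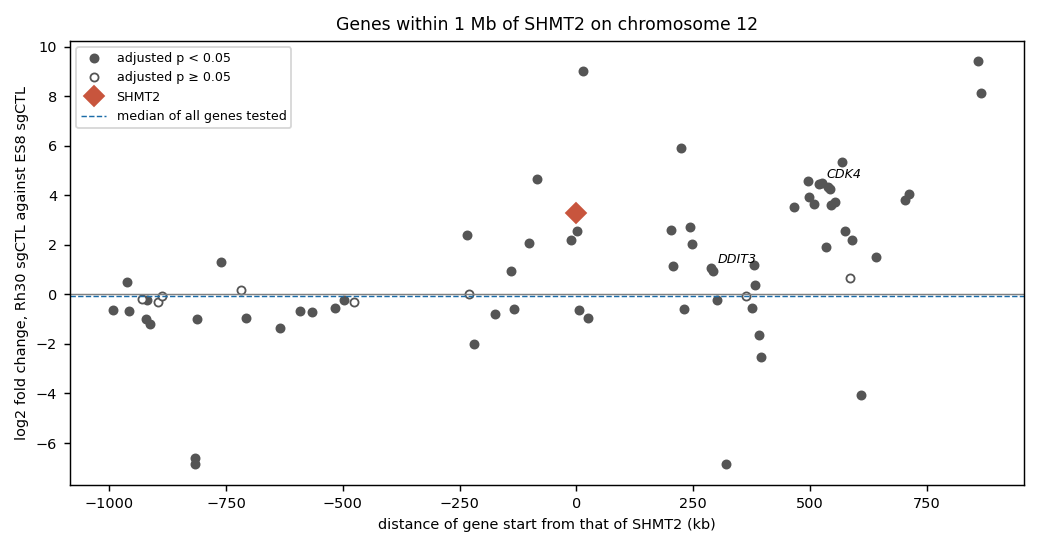
log2 fold change of Rh30 sgCTL against ES8 sgCTL (y axis) for 72 genes within 1 Mb of *SHMT2*, by the distance of their lowest coordinate from that of *SHMT2* in kb (x axis); filled points passed at adjusted p under 0.05, and the dashed line is the median of all genes tested. *SHMT2* (red diamond, 3.28) and most genes to its right lie above 0, while most genes to its left lie at or below 0.

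The central question was whether *DNAJC17* knockdown changes these genes. In Rh30, 6 of the 10 rose and none fell. They were *SLC3A2*, *SLC7A11*, *SLC7A5*, *ASNS*, *MTHFD2* and *PSPH*, with log2 fold changes of 0.22 to 0.62. None of the 10 reached 2-fold, as 1.55% of genes did. Among all 15391 genes tested 16.1% were higher and 16.2% lower. In ES8, *SLC3A2* rose and *ALDH18A1* fell, and the other 8 did not pass; among 17143 genes tested 13.6% were higher and 13.8% lower. Reads on mitochondrial genes took 1.48% to 1.73% of ES8 sgDNAJC17 counts and 1.10% to 1.13% of ES8 sgCTL counts, without overlap, and their part in these results was not tested. The median log2 fold change of the 10 was 0.25 in Rh30 beside 0.00 over all genes, and 0.01 in ES8 beside −0.02. In bulk RNA, a change in the make-up of the cells and a change in RNA per cell cannot be told apart.

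Results in Rh30 stand beside other shifts in the same libraries. The 9 epithelial markers summed to 1.06 to 1.55 CPM with sgCTL, where 2 of them were at 0, to 11.3 to 16.3 CPM with sgDNAJC17 and to 12 to 14.8 CPM in ΔRRM cells. Most of the sgDNAJC17 sum came from *KRT8* (mean 9.52 CPM) and *KRT18* (3.18 CPM), and each other epithelial marker was below 1 CPM. In ES8 libraries the same markers summed to 34.2 to 44.5 CPM. The 4 measured leukocyte and endothelial markers summed to at most 0.755 CPM in any library. The rhabdomyosarcoma markers summed to 2974 to 3060 CPM with sgCTL, 2529 to 2750 CPM with sgDNAJC17 and 1959 to 2198 CPM in ΔRRM cells. The part of these shifts in the gene changes was not tested.

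The transporter chain *SLC3A2* (chromosome 11, 62856102 to 62888875, plus strand) encodes the heavy subunit that carries both SLC7A5 and SLC7A11 to the cell surface. In ES8 it was at 254, 255 and 250 CPM with sgCTL and at 382, 338 and 342 CPM with sgDNAJC17. In Rh30 it was at 232, 223 and 223 CPM with sgCTL and at 354, 349 and 302 CPM with sgDNAJC17. Every knockdown library lay above every control library in both lines. Here and below, the share of all genes separated in this way is not given. The log2 fold change was 0.46 ± 0.060 (SE) in ES8 (adjusted p = 0.000813) and 0.58 ± 0.066 in Rh30 (adjusted p = 5.06e-05). With all libraries and these settings no other of the 10 genes passed in both lines. The rise of *SLC3A2* held when any 1 library was left out, with log2 fold changes of 0.40 to 0.49 for ES8 and 0.55 to 0.65 for Rh30. The difference between the effects in the 2 lines did not pass (0.15, 95% interval −0.07 to 0.36, adjusted p = 0.400).

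*SLC7A5* (chromosome 16, 87830023 to 87869488, minus strand) imports leucine and other large neutral amino acids. In Rh30 it was at 475, 438 and 439 CPM with sgCTL and 658, 570 and 481 CPM with sgDNAJC17 (log2 fold change 0.35 ± 0.087, adjusted p = 0.00743). In ES8 it was at 562, 556 and 529 CPM with sgCTL and 767, 602 and 622 CPM with sgDNAJC17. The ES8 groups did not overlap, with a log2 fold change of 0.25 ± 0.086, which missed the threshold (adjusted p = 0.0542). Without ES8 sgDNAJC17 replicate A, the high library, it was 0.13 and passed (adjusted p = 0.000335), and it also passed without replicate B (0.32, adjusted p = 0.0355) or C (0.30, adjusted p = 0.0465). With all libraries *SLC7A5* passed in ES8 by DESeq2 (0.26, adjusted p = 0.0347), without the filter on low counts (0.25, adjusted p = 0.000615), in a fit of all 18 libraries (0.27, adjusted p = 0.0239) and with a replicate block (0.24, adjusted p = 0.0385), and in Rh30 it passed under the same 4 settings. *SLC7A5* did not pass in ES8 in 8 of 16 alternatives (adjusted p up to 0.188). These were DESeq2 size factors, library size alone, at least 10 counts in every library and leaving out any sgCTL library. An adjusted p under 0.01 and 2-fold were the others. Without Rh30 sgDNAJC17 replicate A, the high library in that line, the Rh30 value was 0.24 (adjusted p = 0.00216).

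*SLC7A11* (chromosome 4, 138164097 to 138242349, minus strand) is the cystine and glutamate exchanger. In Rh30 it was at 3.72, 3.32 and 3.81 CPM with sgCTL and 5.78, 5.00 and 5.65 CPM with sgDNAJC17. These groups were separate, and the log2 fold change of 0.62 ± 0.12 was the largest of the 10 in Rh30 (adjusted p = 0.00181). It rests on 145 to 259 reads per library. In ES8 the knockdown libraries were at 17.2, 29.3 and 28.5 CPM, around the control values of 26.7, 28.3 and 29.6. The log2 fold change there was −0.20 (95% interval −0.57 to 0.18), and 0.01 without replicate A, the low library.

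**Figure D4:**
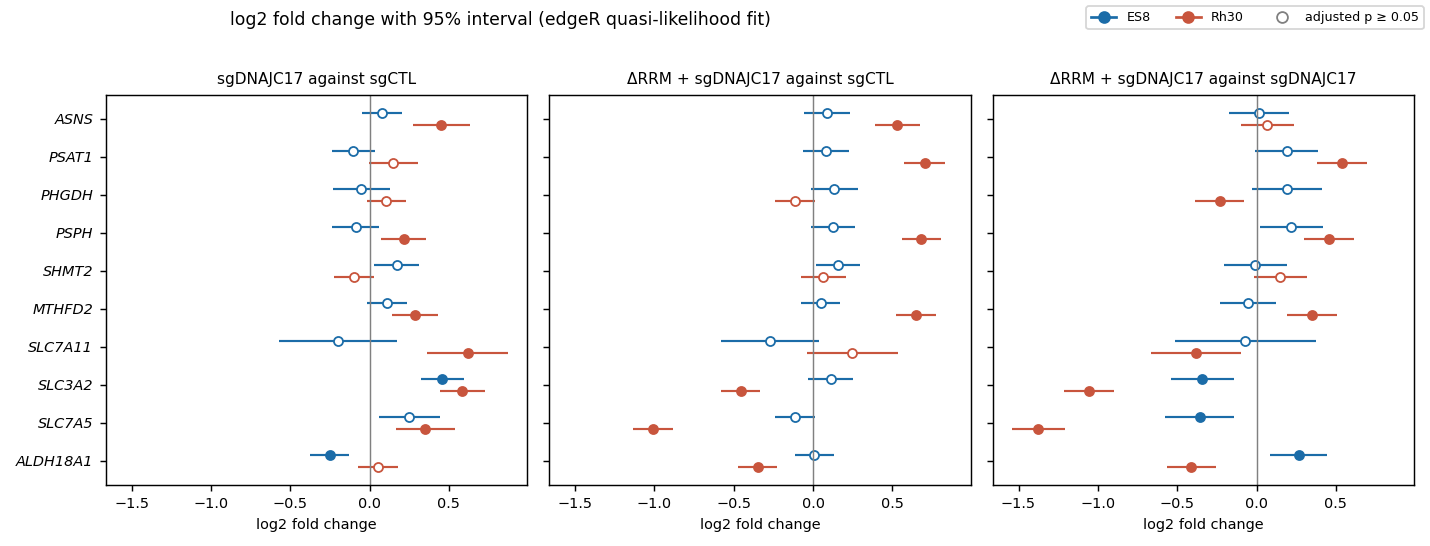
log2 fold changes (x axes) of the 10 genes in 3 comparisons, with ES8 in blue and Rh30 in red; lines are 95% intervals, filled points passed at adjusted p under 0.05 and open points did not. In the left panel 6 Rh30 points are filled to the right of 0, and in the right panel *SLC3A2* at −1.05 and *SLC7A5* at −1.38 lie farthest left in Rh30.

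Among the synthesis genes, *ASNS* (chromosome 7, 97852118 to 97872542, minus strand) rose in Rh30, from 27.3, 32.1 and 33.0 CPM with sgCTL to 39.1, 40.7 and 45.3 CPM with sgDNAJC17 (log2 fold change 0.45 ± 0.085, adjusted p = 0.00146). All 3 knockdown libraries were above the controls. In ES8 it stood at 160, 174 and 170 CPM with sgDNAJC17, overlapping the controls at 163, 151 and 156, and the log2 fold change was 0.08 (95% interval −0.05 to 0.20). *MTHFD2* (chromosome 2, 74198562 to 74217565, plus strand), the mitochondrial methylene-tetrahydrofolate dehydrogenase, rose in Rh30 from 224, 241 and 249 CPM to 271, 286 and 305 CPM (0.29 ± 0.067, adjusted p = 0.00527). It was at 189, 179 and 185 CPM in ES8 sgCTL and 189, 208 and 208 CPM in ES8 sgDNAJC17, with a log2 fold change of 0.11 (95% interval −0.02 to 0.24).

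The serine synthesis enzymes act in the order PHGDH, PSAT1 and PSPH. Of these, *PSPH* (chromosome 7, 56011051 to 56051604, minus strand), the phosphatase that releases serine, rose in Rh30 from 64.4, 68.9 and 66.3 CPM to 71.6, 77.7 and 80.1 CPM (log2 fold change 0.22 ± 0.067, adjusted p = 0.0236). The call was lost when either sgCTL replicate A or C or sgDNAJC17 replicate B or C was left out (0.17 to 0.21, adjusted p = 0.0736 to 0.0965) and under scaling by library size alone (0.15, adjusted p = 0.0856). *PSAT1* (chromosome 9, 78297143 to 78330093, plus strand), the aminotransferase, was at 189, 208 and 217 CPM and 210, 223 and 241 CPM in Rh30. Its groups overlapped, and its log2 fold change of 0.15 did not pass (adjusted p = 0.126). *PHGDH* (chromosome 1, 119659798 to 119744215, plus strand) was at 296, 309 and 302 CPM and 325, 328 and 314 CPM (0.11, adjusted p = 0.166), with every knockdown library above the controls. In ES8 the 3 enzymes had log2 fold changes of −0.10 to −0.05 and did not pass.

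*SHMT2* in Rh30 was at 3254, 3274 and 3389 CPM with sgCTL and 3101, 3119 and 2945 CPM with sgDNAJC17, a log2 fold change of −0.10 (adjusted p = 0.217). In ES8 it was at 336, 340 and 328 CPM and 419, 366 and 363 CPM (0.17, adjusted p = 0.0768). Replicate letters may pair the Rh30 parental libraries, where deviations of the same letter correlated at 0.400, 0.156 and 0.220. Different letters were not compared, so the pairing was not tested. With the letter as a replicate block, *PSAT1* (0.15, adjusted p = 0.000874) and *PHGDH* (0.11, adjusted p = 0.00917) also rose in Rh30 and *SHMT2* fell (−0.10, adjusted p = 0.00407), for 8 higher and 1 lower, where 23.5% of all genes were higher and 23.5% lower in that fit. Without Rh30 sgDNAJC17 replicate A, 7 of the 10 rose, with *PSAT1* added (0.20, adjusted p = 0.00942), and none fell, where 20.3% of all genes were higher and 21.1% lower.

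*ALDH18A1* (chromosome 10, 95605929 to 95656706, minus strand) encodes the enzyme that begins proline synthesis from glutamate. In ES8 it fell from 181, 176 and 181 CPM with sgCTL to 160, 150 and 149 CPM with sgDNAJC17 (log2 fold change −0.25 ± 0.054, adjusted p = 0.00776). The groups were separate. In Rh30 it was at 232, 230 and 228 CPM and 250, 237 and 221 CPM, which overlapped, with a log2 fold change of 0.05 (95% interval −0.08 to 0.18).

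ES8 counts depended on sgDNAJC17 replicate A. Without it, 5 of the 10 genes rose (*ASNS* 0.11, *SHMT2* 0.10, *MTHFD2* 0.15, *SLC3A2* 0.40 and *SLC7A5* 0.13) and *ALDH18A1* (−0.29) and *PHGDH* (−0.16) fell. In that fit 22.4% of all genes were higher and 22.9% lower. *ASNS*, *MTHFD2*, *SLC3A2* and *SLC7A5* then passed as higher in both lines. How many of all genes did so in both lines is not given here. Replicate A carried *PHGDH* at 705 CPM beside 583 and 571 CPM in replicates B and C.

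The knockdown effect was then compared between the lines by an interaction of line and sgRNA. It was higher in Rh30 than in ES8 for 4 of the 10 genes and lower for none, where 5.23% of 18899 genes were higher and 4.55% lower. The log2 difference was 0.84 ± 0.206 for *SLC7A11* (adjusted p = 0.0130), 0.40 ± 0.111 for *ASNS* (adjusted p = 0.0257), 0.33 ± 0.092 for *ALDH18A1* (adjusted p = 0.0275) and 0.33 ± 0.099 for *PSPH* (adjusted p = 0.0392). These calls were not firm. Leaving out Rh30 sgCTL replicate A left 0 of the 4, at adjusted p = 0.0581 for *SLC7A11* and 0.102 to 0.207 for the others. *SLC7A11* passed without any other single library. The count was 1 without ES8 sgCTL replicate A or C or Rh30 sgDNAJC17 replicate B, and 2 without ES8 sgCTL replicate B, Rh30 sgCTL replicate B or C or Rh30 sgDNAJC17 replicate C. It was 5 without ES8 sgDNAJC17 replicate A, where *PHGDH* joined (0.31, adjusted p = 0.00649), or without Rh30 sgDNAJC17 replicate A, where *PSAT1* did (0.34, adjusted p = 0.0270). With the replicate letter as a block it was also 5, and *PSAT1* passed (0.28, adjusted p = 0.0285).

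The ΔRRM cells were compared with parental sgCTL and, under the same guide, with parental sgDNAJC17 cells; these comparisons share libraries with each other and with the knockdown comparison. In ES8, none of the 10 genes passed against sgCTL by edgeR, where 0.174% of 17199 genes passed. At an unadjusted p under 0.05, *SHMT2* alone was higher (0.16), and DESeq2 called 0. The log2 fold changes lay between −0.27 (*SLC7A11*) and 0.16, and without ΔRRM replicate A *SLC7A11* passed (−0.48, adjusted p = 0.0443). Without ΔRRM replicate B none of the 10 passed. *SLC3A2* was at 258, 300 and 267 CPM in ES8 ΔRRM cells, between its sgCTL and sgDNAJC17 values.

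Against ES8 sgDNAJC17, *SLC3A2* (−0.34 ± 0.091, adjusted p = 0.0272) and *SLC7A5* (−0.36 ± 0.100, adjusted p = 0.0322) were lower in ΔRRM cells and *ALDH18A1* was higher (0.27 ± 0.082, adjusted p = 0.0473). Among 17099 genes 7.35% were higher and 7.36% lower. *SLC7A5* was at 490, 510 and 528 CPM in ΔRRM, below each knockdown library, and *ALDH18A1* at 176, 188 and 180 CPM was above each. None of these calls held throughout. *SLC3A2* was lost without sgDNAJC17 replicate B (−0.39) or C (−0.37) or ΔRRM replicate A (−0.30) or C (−0.32), with adjusted p = 0.0610 to 0.118. *SLC7A5* was lost without ΔRRM replicate A (−0.33), B (−0.36) or C (−0.39), with adjusted p = 0.0710 to 0.0980. *ALDH18A1* was lost without any of the libraries other than sgDNAJC17 replicate A, at 0.23 to 0.29 with adjusted p = 0.0766 to 0.231. Without sgDNAJC17 replicate A, *PHGDH* also passed (0.30, adjusted p = 0.0296).

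In Rh30 the ΔRRM cells lay far from both parental groups. Against sgCTL, *PSAT1*, *PSPH*, *MTHFD2* and *ASNS* were higher and *SLC7A5*, *SLC3A2* and *ALDH18A1* were lower, 4 and 3 of the 10. Over 15442 genes 33.8% were higher and 35% lower, so 7 of 10 was near the share of all genes that passed, 68.8%. *PSAT1* was at 332, 319 and 324 CPM in ΔRRM (log2 fold change 0.70 ± 0.064 against sgCTL, adjusted p = 3.75e-15). *PSPH* was at 104, 102 and 107 CPM (0.68 ± 0.063) and *MTHFD2* at 368, 357 and 365 CPM (0.65 ± 0.063). For these 3 genes every ΔRRM library was above every parental library of the line. The share of all genes separated in this way is not given here. *ASNS* at 43.8, 43.1 and 43.4 CPM was higher than with sgCTL (0.53 ± 0.072, adjusted p = 1.76e-09) but overlapped sgDNAJC17.

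Lower in Rh30 ΔRRM cells were 2 of the 3 transporter genes and the proline synthesis gene *ALDH18A1*. *SLC7A5* was at 221, 219 and 214 CPM, with a log2 fold change of −1.01 ± 0.063 against sgCTL (adjusted p = 1.41e-21). It alone of the 10 passed at 2-fold lower, where 3.32% of genes did. *SLC3A2* was at 170, 158 and 153 CPM (−0.46 ± 0.062, adjusted p = 1.92e-09) and *ALDH18A1* at 182, 177 and 170 CPM (−0.35 ± 0.061, adjusted p = 1.05e-06). All 3 were below every parental library of Rh30, a separation whose share over all genes is not given here. *SLC7A11* at 3.5, 4.58 and 4.47 CPM overlapped sgCTL (0.25, adjusted p = 0.12). It passed without ΔRRM replicate A (0.38, adjusted p = 0.0266). *PHGDH* at 290, 259 and 269 CPM had a log2 fold change of −0.11 (adjusted p = 0.106) and *SHMT2* at 3618, 3253 and 3245 CPM one of 0.07 (adjusted p = 0.428).

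Scaling mattered in this comparison, since TMM factors were 0.819 to 0.853 in Rh30 ΔRRM libraries and 0.945 to 0.974 in sgCTL. Under scaling by library size alone the median of all genes moved from −0.01 to −0.25, and *PHGDH* (−0.35) and *SHMT2* (−0.17) were then lower. The 4 higher and 3 lower genes kept their direction and their call.

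Against Rh30 sgDNAJC17, 3 of the 10 were higher in ΔRRM cells (*PSAT1* 0.54 ± 0.079, *PSPH* 0.45 ± 0.079 and *MTHFD2* 0.35 ± 0.078) and 5 were lower. Over 15309 genes 29.4% were higher and 30.5% lower. *SLC7A5* (−1.38 ± 0.083, adjusted p = 7.54e-26) and *SLC3A2* (−1.05 ± 0.080, adjusted p = 1.68e-20) were lower by more than 2-fold, where 3.36% of genes were. The other 3 were *ALDH18A1* (−0.41 ± 0.078), *SLC7A11* (−0.38 ± 0.141, adjusted p = 0.0157) and *PHGDH* (−0.23 ± 0.078, adjusted p = 0.00759). The *SLC7A11* call was lost in a fit of all 18 libraries (−0.39, adjusted p = 0.105) and without ΔRRM replicate A (−0.26, adjusted p = 0.16) and that of *PHGDH* without sgDNAJC17 replicate B (−0.21, adjusted p = 0.0580). Without sgDNAJC17 replicate A, which stood apart, the same 8 genes passed, with *SLC7A5* at −1.28, *SLC3A2* at −1.03, *ALDH18A1* at −0.38, *SLC7A11* at −0.36, *PHGDH* at −0.24, *PSAT1* at 0.48, *PSPH* at 0.40 and *MTHFD2* at 0.29.

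The distance of ΔRRM from sgCTL differed between the lines for 8 of the 10 genes, 4 higher and 4 lower in Rh30, where 19.9% of 18854 genes were higher and 21.5% lower. The largest differences were −0.90 ± 0.082 for *SLC7A5* (adjusted p = 3.82e-08), 0.62 ± 0.089 for *PSAT1* (adjusted p = 5.54e-06) and 0.60 ± 0.079 for *MTHFD2* (adjusted p = 2.05e-06). *SHMT2* (−0.09, 95% interval −0.27 to 0.09) and *SLC7A11* (0.52, 95% interval 0.08 to 0.96, adjusted p = 0.0549) did not pass. *SLC7A11* passed without Rh30 ΔRRM replicate A (0.65, adjusted p = 0.0225) or ES8 ΔRRM replicate A (0.71, adjusted p = 0.00171). With all libraries it passed without the filter on low counts (0.52, adjusted p = 0.00702), with at least 10 counts in every library (0.54, adjusted p = 0.0424) and with a replicate block (0.55, adjusted p = 0.0271). In 16 of 22 alternatives *SLC7A11* did not pass (adjusted p up to 0.309). The *ASNS* difference of 0.45 was lost under scaling by library size alone (0.23, adjusted p = 0.0506). The *PHGDH* difference of −0.25 (adjusted p = 0.0331) was lost when any of 7 libraries was left out: ES8 sgCTL A or C, ES8 ΔRRM B, Rh30 sgCTL B or C, or Rh30 ΔRRM B or C (−0.25 to −0.18, adjusted p = 0.0513 to 0.105).

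The regulators of these genes were described from a list of 21. With sgDNAJC17, 6 rose and 3 fell in ES8 (median 0.19), and 10 rose and 3 fell in Rh30 (median 0.16). Over all genes 13.6% were higher and 13.8% lower in ES8, and 16.1% and 16.2% in Rh30. *ATF4* mRNA rose in both lines, from 308 to 315 CPM to 500 to 549 CPM in ES8 (log2 fold change 0.72 ± 0.054, adjusted p = 9.34e-05) and from 236 to 245 CPM to 330 to 355 CPM in Rh30 (0.54 ± 0.060, adjusted p = 4.50e-05). *ATF4* protein and its translation were not measured. *DDIT3*, the CHOP gene, rose by 0.52 and 0.49 in ES8 and Rh30. *PPP1R15A*, which directs dephosphorylation of eIF2α, rose by 1.06 and 1.42. *TRIB3*, a pseudokinase gene and ATF4 target, did not pass in either line (0.23 and 0.11). *CEBPB*, a C/EBP partner, passed in Rh30 (0.34, adjusted p = 0.00445) and not in ES8 (0.19, adjusted p = 0.250), and the difference was not significant (0.17, adjusted p = 0.532).

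The same 21 genes were counted in ΔRRM cells. In ES8 none of the 21 passed against sgCTL, where only 0.174% of all 17199 genes did. *ATF4* was lower in ES8 ΔRRM cells than with sgDNAJC17 by edgeR (−0.55, adjusted p = 0.00292). In Rh30, 7 were higher and 8 lower than with sgCTL (median 0.00), so 15 of 21 passed where 68.8% of all genes did. *ATF4* was higher (0.39, adjusted p = 1.12e-07) and *DDIT3* was higher (0.74), while *TRIB3* (−0.55), *EIF2AK4*, the GCN2 amino acid sensor kinase gene (−0.71), and *MTOR*, the growth kinase gene (−0.84), were lower. *ATF4* and 4 of the 10 genes were higher in the same Rh30 cells in which *SLC7A5*, *SLC3A2* and *ALDH18A1* were lower.

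Other genes of the same pathways were counted in the same comparisons. Under knockdown 13.6% of all genes were higher and 13.8% lower in ES8, and 16.1% and 16.2% in Rh30. Among other serine, glycine and one-carbon genes, 0 of 16 rose and 8 fell in ES8 by edgeR (median −0.22), led by *MTR*, methionine synthase (−0.71), the cytosolic enzyme gene *SHMT1* (−0.54) and *MTHFD1* (−0.45). In Rh30, 1 of 15 rose, *MTHFD2L* (0.38), the close relative of *MTHFD2*, and none fell (median −0.09). The effect was higher in Rh30 than in ES8 for 5 of 16, where 5.23% of all genes were higher and 4.55% lower. In Rh30 ΔRRM cells *MTHFD2L* was at 1.27 against sgCTL (adjusted p = 1.30e-21).

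Among other amino acid transporters, 0 of 19 rose and 5 fell in ES8 under knockdown (median −0.14), where 13.6% of all genes rose and 13.8% fell. In Rh30, 2 of 18 rose and 3 fell (median −0.08), where 16.1% of all genes rose and 16.2% fell.  In Rh30 ΔRRM cells 10 of 17 were lower than with sgCTL and 3 higher (median −0.41, beside −0.01 over all genes), where 35% of all genes were lower and 33.8% higher. They included *SLC43A2* (−1.27), the neutral amino acid transporter gene *SLC1A4* (−1.20) and the cationic amino acid transporter gene *SLC7A1* (−0.69). *SLC1A4* fell to 3.58 to 4.24 CPM from 8.23 to 10.5 CPM, and *SLC7A1* to 125 to 130 CPM from 202 to 220 CPM.

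Among other asparagine, aspartate, glutamate and proline genes, 1 of 14 rose and 4 fell in ES8 under knockdown (median −0.09). In Rh30, 1 of 14 rose and 3 fell (median −0.14). The shares of all genes were 13.6% higher and 13.8% lower in ES8, and 16.1% and 16.2% in Rh30. *PYCR3*, a proline synthesis gene downstream of *ALDH18A1*, fell in both (−0.37 and −0.19). In Rh30 ΔRRM cells 5 of 14 were higher, led by *OAT*, ornithine aminotransferase (0.89), and 5 lower than with sgCTL, so 10 of 14 passed beside 68.8% of all genes. Among cysteine and glutathione genes, *CHAC1*, a glutathione-degrading enzyme gene induced by ATF4, rose in ES8 (1.09, adjusted p = 0.000243), the only 1 of 10 to pass, and *GSS* fell in Rh30 (−0.20), the only 1 of 9. In Rh30 ΔRRM cells 6 of 9 were higher, *GPX4* (0.46) among them, and 1 was lower, *GCLC* (−0.53), so 7 of 9 passed beside the same 68.8%.

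The surroundings of the 10 genes were checked, since the strand setting of the counting is not given in the sources used here. *SNHG1*, a long non-coding RNA gene that hosts small nucleolar RNAs, starts 188 bases from *SLC3A2* on the opposite strand. It rose with sgDNAJC17 from 55.6 to 59.7 CPM to 109 to 118 CPM in ES8 (log2 fold change 0.95 ± 0.060, adjusted p = 5.02e-05) and from 44.6 to 48.5 CPM to 110 to 130 CPM in Rh30 (1.39 ± 0.074, adjusted p = 5.13e-08). In Rh30 ΔRRM cells *SNHG1* was higher than with sgCTL (0.93, adjusted p = 3.03e-19), where *SLC3A2* was lower (−0.46). *CCT6A*, a chaperonin subunit gene, starts 26 bases from *PSPH* on the opposite strand. It rose in Rh30 with sgDNAJC17 (0.27, adjusted p = 0.00408), as *PSPH* did, and did not pass in Rh30 ΔRRM cells against sgCTL (0.09, adjusted p = 0.204), where *PSPH* was higher (0.68).

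Genes that overlap exons of the members on the opposite strand had few counts, and *SNHG1* and *CCT6A* were not among them. *SLC4A5* shares 1324 exon bases with *MTHFD2*, 27.2% of its exon length, and had 1 to 15 counts in a library beside 7164 to 13719 for *MTHFD2*. *SLC7A11-AS1* shares 865 bases with *SLC7A11* and had 1 to 41 counts beside 128 to 1500. Annotated pseudogenes named after the members were low as well, the highest being *SLC7A5P1* with 152 counts in its highest library, beside at least 6258 for *SLC7A5*, and *ASNSP1* with 26, beside at least 1109 for *ASNS*.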

How the data were processed

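Poly-A RNA was sequenced from 18 cultures, 3 for each combination of line and group. Per the labels, the authors trimmed reads with Trimmomatic 0.36, aligned them with STAR 2.5.2b and counted them per gene with featureCounts (Subread 1.5.2), and the deposited values are raw counts with no normalization. The processing notes name GRCh38 and the study's methods name hg19. The coordinates in the files matched those of GRCh38 within 1 kb for 85.3% of 19039 genes matched by symbol, and those of the older build for 4.05% of 19583, so GRCh38 is used here. Of 57500 genes, 55082 had a symbol.

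Differences were tested in R 4.3.3 with edgeR 4.0.16 (quasi-likelihood test, TMM scaling, filterByExpr, group only), with Benjamini-Hochberg adjustment over all genes tested. Genes under an adjusted p of 0.05 passed, with at least 2-fold as a second rule. The design took only the groups compared, and the interaction fits took 12 libraries. CPM was computed with TMM factors over the 18 libraries, and per kb with the exon length in the files. On simulated ES8 knockdown data 97 of 100 genes changed by 1 on the log2 scale and 100 of 100 changed by 2 were recovered, with 13 false calls. On simulated interaction data 88 of 100 and 92 of 100 were recovered, with 8 false. Only genes with ample counts were changed, and none by less than 1, so recovery of smaller changes was not simulated. The knockdown changes of the 10 genes were all smaller than 1.

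The 10 genes were named in every comparison, with *DNAJC17*. From 5 pathway lists, counts were given with up to 3 genes of smallest p per comparison, beside preset regulators, genes starting within 1 kb and pseudogenes. *CDK4* was named after its value was seen. The genes and lists were chosen with earlier results of these data known. Alternatives were DESeq2 1.42.0, its size factors, library size alone, other filters and thresholds, all 18 libraries in 1 fit, a replicate block and leaving out each library. Deviations from the group means of the same replicate letter correlated at 0.400, 0.156 and 0.220 in the Rh30 parental groups. Different letters were not compared. At these depths the rarest member, *SLC7A11*, still had at least 128 counts per library. Promoter windows were read from RefSeq (GRCh38).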

Additional observations from a re-analysis of the deposited data

Results flagged for a closer look

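The knockdown effect differed between the lines, by the interaction test, for 4 of the 10 genes, where 5.23% of all genes were higher in Rh30 and 4.55% lower. Leaving out Rh30 sgCTL replicate A left 0 of the 4, and leaving out each of the 12 libraries in turn gave 0 to 5. Each of the 4 was higher in Rh30 than in ES8, by 0.84 for *SLC7A11*, 0.40 for *ASNS*, 0.33 for *PSPH* and 0.33 for *ALDH18A1* on the log2 scale. The log2 fold changes were −0.25 (ES8) and 0.05 (Rh30) for *ALDH18A1* and −0.20 and 0.62 for *SLC7A11*.

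The distance of ΔRRM cells from sgCTL cells differed between the lines for 8 of the 10, where 19.9% of all genes were higher in Rh30 and 21.5% lower. It was higher in Rh30 for *PSAT1* (0.62), *MTHFD2* (0.60), *PSPH* (0.56) and *ASNS* (0.45), and lower for *SLC7A5* (−0.90), *SLC3A2* (−0.57), *ALDH18A1* (−0.36) and *PHGDH* (−0.25). The *PHGDH* call was lost without any of 7 single libraries, and the *ASNS* call under scaling by library size alone (0.23, adjusted p = 0.0506). The ΔRRM population of each line was made separately, so the line and the making of its population cannot be told apart.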

How the results depend on the processing

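Counts of the 10 genes are given as higher and lower. In ES8 sgDNAJC17 against sgCTL (1 and 1), the higher count was 2 by DESeq2, without a filter on low counts and with a replicate block, 3 in the fit of all 18 libraries and at an unadjusted p under 0.05, and 0 and 0 at 2-fold. Leaving out 1 library gave 1 to 5 higher and 1 to 2 lower. In Rh30 (6 and 0), the lower count was 1 with the replicate block and under library size alone, and the higher count was 0 at 2-fold. Leaving out 1 library gave 5 to 7 and 0.
In ES8 ΔRRM against sgCTL (0 and 0), the higher count was 1 at an unadjusted p, and leaving out 1 library gave 0 higher and 0 to 1 lower. In Rh30 ΔRRM against sgCTL (4 and 3), 2-fold left 0 and 1, library size alone gave 5 lower, and leaving out 1 library gave 4 to 5 and 3.
In ES8 ΔRRM against sgDNAJC17 (1 and 2), the replicate block, an adjusted p under 0.01 and 2-fold left 0 and 0. The higher count was 0 by DESeq2, with its size factors and without the filter, and 2 at an unadjusted p and in the fit of all 18 libraries. Leaving out 1 library gave 0 to 2 and 0 to 2. In Rh30 ΔRRM against sgDNAJC17 (3 and 5), 2-fold left 0 and 2, and leaving out 1 library gave 3 and 4 to 5. Between the parental lines (5 and 5), 2-fold left 1 and 3, and leaving out 1 library changed neither count.
For the difference in knockdown effect (4 and 0), an adjusted p under 0.01 and 2-fold left 0 higher, omitting the filter gave 2 and 1, the fit of all 18 libraries 1 and 1, library size alone and an unadjusted p 1 lower, and the replicate block 5 higher. Leaving out 1 library gave 0 to 5 higher and 0 lower. For the ΔRRM difference (4 and 4), 2-fold left 0 and 0, no filter, at least 10 counts in every library and the replicate block each gave 5 higher, library size alone gave 3 and 5, and leaving out 1 library gave 4 to 5 and 3 to 4.
Library size alone turned the sign of *ALDH18A1* in Rh30 sgDNAJC17 (−0.0094) and ES8 ΔRRM (−0.014) against sgCTL, of *SHMT2* in Rh30 ΔRRM against sgCTL (−0.17) and sgDNAJC17 (−0.012) and in ES8 ΔRRM against sgDNAJC17 (0.013), of *ASNS* in Rh30 ΔRRM against sgDNAJC17 (−0.095) and of *PSPH* between the lines (−0.033). The fit of all 18 libraries turned *ASNS* in ES8 ΔRRM against sgDNAJC17 (−0.0073). Leaving out 1 library turned only values that had not passed. The ranges were −0.33 to 0.0091 for *SLC7A11* and −0.16 to 0.0060 for *PHGDH* in ES8 sgDNAJC17, −0.019 to 0.031 for *ALDH18A1* in ES8 ΔRRM against sgCTL, and −0.047 to 0.049 for *ASNS*, −0.054 to 0.064 for *SHMT2* and −0.28 to 0.10 for *SLC7A11* in ES8 ΔRRM against sgDNAJC17.
Outside the Rh30 parental groups the correlations of the same letter were −0.448 to 0.211. Different letters were not compared, so whether the letters pair any libraries was not tested. The cause of each change was not tested. Where leaving out a library left 2 in a group, fewer samples entered the fit. Of the values under alternatives for single genes, 1383 kept their direction and side of the threshold, 115 lost their call, 43 gained one and 19 turned.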
